A study of Mus musculus with 2 samples.

Results

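The genes examined here were the 7 genes of the angiopoietin, Tie and apelin signalling systems that the mouse mesenteric single-cell data list, Angpt1, Angpt2, Tek, Tie1, Ptprb, Apln and Aplnr. They were chosen by their place in these pathways and not by a measured value, though earlier results of these data were known. They are 7 of the 28692 genes in the count files. The data comprised 2 single-cell RNA sequencing libraries of CD31+ cells that were pulled with magnetic beads from the mesentery of C57BL/6 mice at postnatal day 8, and each library pooled 3 mice. One library was labelled control, with no genotype in its labels. The other was a Flcn knockout, which in the study is Cdh5-BAC-CreERT2+ Flcn flox/flox, or Flcn iΔEC, where the Cdh5 promoter drives an inducible Cre in endothelial cells. Mice of both groups had received 40 ug of 4-hydroxytamoxifen under the skin at postnatal days 2, 3.5, 5 and 6.5. With 1 library per genotype there was no replicate of a condition and no test between conditions. All ranges in parentheses are 95% intervals, Poisson for levels, conditional for ratios and Clopper-Pearson for shares, and they cover counting error only.

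Angiopoietins are secreted ligands of the endothelial receptor tyrosine kinase Tie2, which is encoded by Tek. Angpt1, made mainly by perivascular and mesenchymal cells, activates Tie2 and stabilizes vessels, whereas Angpt2 is stored and released by endothelial cells and can block or activate Tie2 depending on the setting. Tie1 is a related receptor that modifies Tie2 signalling, and Ptprb encodes the phosphatase VE-PTP, which removes phosphate from Tie2. Lymphatic endothelium is known to need Angpt2 and Tie1 for its remodelling and valves, and it carries little VE-PTP. Apelin, the product of Apln, is a peptide that sprouting endothelium secretes, and it acts through the G protein-coupled receptor encoded by Aplnr, which marks venous and angiogenic endothelium.

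All 7 genes are protein coding in the GENCODE annotation of GRCm38. Angpt1 lies at chr15:42424723-42676977 on the minus strand, Angpt2 at chr8:18690263-18741562 on the minus strand, Tek at chr4:94739289-94874976 on the plus strand, and Tie1 at chr4:118471191-118490061 on the minus strand. Ptprb lies at chr10:116275523-116389535 on the plus strand, Apln at chrX:48025146-48034853 on the minus strand, and Aplnr at chr2:85136225-85139923 on the plus strand. Ptprb overlaps the predicted genes Gm47625 and Gm26495 on its own strand, so that reads in the overlap could be split between them. Angpt1 and Angpt2 overlap Gm17473 and Mcph1 on the opposite strand.

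The sequences just before the start sites of Tek and Apln are shown because the RNA of this receptor and of this ligand was lower in the Flcn iΔEC library. The RefSeq promoter table used here matched 3 of the 7 genes, Tek, Tie1 and Apln, and the Tie1 start site of RefSeq differed from that of GENCODE. The 250 bases upstream of Tek are chr4:94739039-94739288 on the plus strand, and those of Apln are chrX:48034854-48035103 on the minus strand, both in GRCm38.p6 and written 5′ to 3′. Capitals mark the letters GGAA or their reverse complement TTCC, the core of the motif that ETS factors bind.
Tek: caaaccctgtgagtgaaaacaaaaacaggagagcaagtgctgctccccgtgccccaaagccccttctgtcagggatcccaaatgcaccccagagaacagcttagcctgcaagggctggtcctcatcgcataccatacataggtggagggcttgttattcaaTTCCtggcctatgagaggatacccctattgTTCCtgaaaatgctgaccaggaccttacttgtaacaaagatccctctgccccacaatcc
Apln: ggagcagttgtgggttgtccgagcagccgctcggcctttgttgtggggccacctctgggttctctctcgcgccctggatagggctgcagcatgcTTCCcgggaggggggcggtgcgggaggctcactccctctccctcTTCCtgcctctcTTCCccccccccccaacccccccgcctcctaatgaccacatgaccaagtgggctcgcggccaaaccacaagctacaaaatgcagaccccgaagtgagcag
The Tek window held 2 matches to this core and the Apln window 3, and over all 32851 windows of this length 93.4% held at least 1, with a median of 3. The E-box CACGTG, which factors of the TFE3 family can bind, was searched on the same windows and reads the same on both strands. It had 0 matches upstream of Tek, Tie1 and Apln, and 6.02% of all windows held it. No other sequence that factors of this family can bind was searched, so such sites may lie in these windows.

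The control library held 6814 cells and 64639756 counts of unique molecular identifiers (UMIs), and the Flcn iΔEC library 4459 cells and 60805779. Cells with at least 2 UMIs of Cdh5, the gene of VE-cadherin, numbered 566 in the control and 892 in the other library, so most of the CD31+ cells were not endothelial by this gate. After clusters that kept no endothelial name were set aside, 435 control and 758 Flcn iΔEC endothelial cells remained, with medians of 14222 and 23103.5 UMIs. Cdh5 itself was at 692 and 548 counts per 1000000 UMIs (CPM) in them, against 3.24 and 4.08 CPM in the cells below the gate. A shallow cluster below the gate, with 349 control and 261 Flcn iΔEC cells and a median of 1058 UMIs, carried 7 of 8 pan-endothelial markers. Another, with 82 and 118 cells and a median of 1300.5 UMIs, carried 8 of 8. Whether these clusters hold endothelial cells that the gate left out was not tested. Pecam1, the gene of CD31, was at 963 and 682 CPM in the endothelial cells and at 133 and 94.3 CPM below the gate. Flcn was at 9.4 and 10.1 CPM in the same cells, and 3′ tags would still count a transcript that lacks only inner exons, so this gene did not check the labels. The libraries shared 6 cell barcodes. Xist counts numbered 9 in the control against 63462 in Flcn iΔEC, so the libraries also differed in the RNA that marks female cells, and the part of sex in any difference given here was not tested.

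The endothelial cells were named from marker genes as lymphatic (LEC-like), lymph node sinus lymphatic, venous (VEC-like), high endothelial venule (HEV-like), arterial (AEC-like) or capillary-like. LEC-like cells fell into 3 clusters with high, middle and low Lyve1, a hyaluronan receptor of lymphatic capillaries, and AEC-like cells into one with high Gja5 and one with high Cxcl12. The Cxcl12-high cluster also carried 6 of the 9 capillary and 4 of the 6 mural markers. Its Gja5 was at 34.9 CPM in the control and 46.2 CPM in Flcn iΔEC, against 668 and 383 CPM in the Gja5-high cluster. The HEV-like cluster also carried 5 of 5 B cell, 5 of 7 NK and innate lymphoid and 5 of 7 macrophage and dendritic markers. Its control Cdh5 was at 450 CPM, against 943 CPM in VEC-like cells. The part of RNA of other cells in the levels of both clusters was not tested. A cluster of 47 Prox1-positive VEC-like cells came from the Flcn iΔEC library alone and was named from markers that the study had chosen on these samples. It was led by hemoglobin genes, which made up 1.1% of its UMIs. In this cluster fewer than 3 markers of the venous list, and fewer than 3 of the lymphatic list, were raised. LEC-like cells were 17.9% (14.4 to 21.9%) of the control endothelial cells and 38.9% (35.4 to 42.5%) of those in the Flcn iΔEC library, whereas the Cxcl12-high AEC-like cells were 30.1% (25.8 to 34.7%) and 6.2% (4.59 to 8.16%). Capillary-like cells were 6.67% and 2.24%, and VEC-like cells 16.1% and 16.2%. Because the libraries differed in this makeup, each gene is given within the types beside its sum over all endothelial cells.

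**Figure D1:**
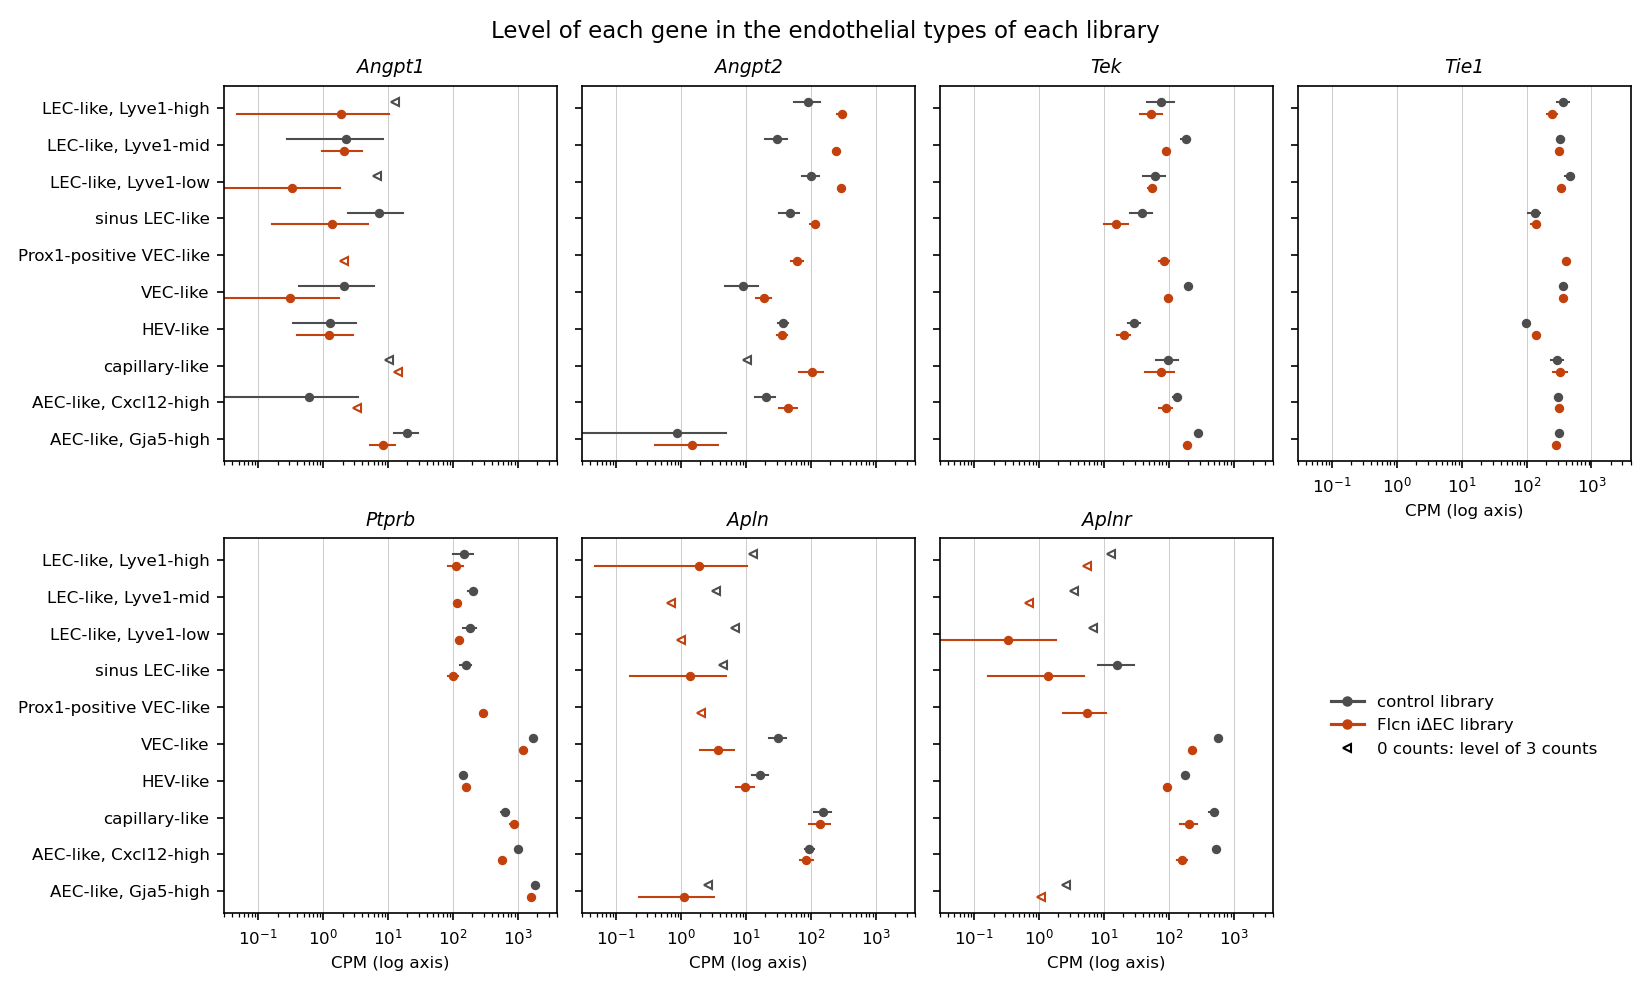
Level of each of the 7 genes in CPM (log axis) in the 10 endothelial types (rows) of the control library (grey) and the Flcn iΔEC library (orange), where points are summed counts, lines are 95% counting intervals and open triangles stand at the level of 3 counts for types with 0 counts. Ptprb is highest in Gja5-high AEC-like and VEC-like cells, Angpt2 in the lymphatic clusters of the Flcn iΔEC library, and Aplnr in control VEC-like, Cxcl12-high AEC-like and capillary-like cells.

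Among the ligands, Angpt1 was scarce in the endothelium and Angpt2 was the member that was higher in the Flcn iΔEC library. Angpt1 had 37 counts in the control endothelial cells, 3.74 CPM (2.63 to 5.15), and 42 counts in those of Flcn iΔEC, 1.92 CPM (1.38 to 2.59). Divided by the control level, this gave a ratio of 0.513 (0.322 to 0.82). Most of these counts were in Gja5-high AEC-like cells, with 22 control counts at 19.5 CPM (12.2 to 29.5) and 23 Flcn iΔEC counts at 8.41 CPM (5.33 to 12.6), a ratio of 0.432 (0.23 to 0.813). This cluster also carried 3 of the 6 mural markers, and the part of mural RNA in its Angpt1 was not tested. The other types had at most 9 counts of Angpt1 in a library, and in the Flcn iΔEC library the arterial level stood apart from the next type, Lyve1-mid LEC-like cells at 2.10 CPM (0.961 to 3.99). After each cell was thinned to 2000 UMIs, an Angpt1 UMI was left in 0.737% of the control endothelium and 0.377% of that of Flcn iΔEC, against 0.022% and 0.00937% of T-like cells.

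Angpt2 was at 29.4 CPM (26.1 to 33.0) over all control endothelial cells and at 120 CPM (115 to 124) in the Flcn iΔEC library, from 291 and 2619 counts. The ratio was 4.07 (3.6 to 4.6). It was 3.19 when the 6 types with at least 20 cells in both libraries were weighted alike. These weights take out the larger share of LEC-like cells in the Flcn iΔEC library and also leave out the types with fewer cells. At 2000 UMIs per cell, an Angpt2 UMI was found in 4.65% (2.87 to 7.11%) of the control endothelium and in 17.7% (15 to 20.5%) of that of Flcn iΔEC, against 23.4% and 52.5% without thinning. T-like cells, which should lack the gene and had medians of 7499 and 7760 UMIs, held one in 0.215% and 0.262% of thinned cells.

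Angpt2 was highest in Lyve1-low and Lyve1-high LEC-like cells in both libraries. In control cells it was at 102 CPM (74.1 to 136) in Lyve1-low and at 90.3 CPM (55.9 to 138) in Lyve1-high LEC-like cells, which did not differ beyond counting error, and at 29.9 CPM (19.5 to 43.7) in Lyve1-mid cells, no higher than in control HEV-like cells at 37.8 CPM. In the Flcn iΔEC library the levels were 289 CPM (270 to 308), 303 CPM (258 to 353) and 245 CPM (231 to 260). The Angpt2 ratio was 8.21 (5.57 to 12.6) in Lyve1-mid, 3.35 (2.12 to 5.56) in Lyve1-high and 2.84 (2.1 to 3.92) in Lyve1-low cells. The Lyve1-mid and Lyve1-low clusters also differed between the libraries in their markers. From the control to the other library Lyve1 went from 295 to 661 CPM in Lyve1-mid and from 156 to 20.5 CPM in Lyve1-low cells, and Vwf, von Willebrand factor, was at 85 and 8.17 CPM in Lyve1-mid cells. The part of these differences in the Angpt2 ratios of the clusters was not tested. Over all LEC-like cells Angpt2 was at 59.5 CPM (48.0 to 73.0; 92 counts) and 266 CPM (255 to 277; 2084 counts), a ratio of 4.47 (3.62 to 5.57).

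The Angpt2 difference was also seen outside the main lymphatic clusters, with HEV-like cells as an exception. Sinus LEC-like cells had 47.1 CPM (32.2 to 66.5) in the control and 116 CPM (98.8 to 134) in the Flcn iΔEC library, a ratio of 2.45 (1.67 to 3.7) that ranged from 1.6 with a split of single cells by their markers to 3.87 without integration of the libraries. VEC-like cells had 8.98 CPM (4.78 to 15.4; 13 counts) and 19 CPM (14.6 to 24.5; 61 counts), a ratio of 2.12 (1.15 to 4.21) that became 8.17 with the marker split, where the class held 153 and 338 cells. The VEC-like cells of the libraries also differed in marker genes, Cxcl12 at 44.2 and 0.937 CPM, Vwf at 2777 and 1483 CPM and the lymphatic gene Prox1 at 49 and 152 CPM. The part of these in the VEC-like ratios given here for Angpt2, Tek, Ptprb, Apln and Aplnr was not tested. Cxcl12-high AEC-like cells had 20.2 CPM and 45.1 CPM, a ratio of 2.23 (1.38 to 3.64), or 1.85 (1.03 to 3.34) without the cell richest in Angpt2 in each library. Capillary-like cells had 0 Angpt2 counts in the control, which allows up to 10.4 CPM, and 22 counts at 103 CPM (64.8 to 157) in the Flcn iΔEC library, 9 of them in 1 cell. HEV-like cells were at 37.8 CPM (31.4 to 45.2) and 36.2 CPM (30.6 to 42.5), and their ratio of 0.956 (0.747 to 1.23) left no difference beyond counting error. Gja5-high AEC-like cells had 1 and 4 counts of Angpt2, the lowest levels of the types with a count in both libraries.

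The receptors Tek and Tie1 differed from each other between the libraries. Tek was at 119 CPM (112 to 126; 1178 counts) in control and 80.3 CPM (76.6 to 84.1; 1759 counts) in Flcn iΔEC endothelial cells, a ratio of 0.675 (0.626 to 0.727). Cdh5, the gene of the gate, had a ratio of 0.792 (0.769 to 0.816) in the same cells. Control levels of Tek were highest in Gja5-high AEC-like cells at 282 CPM (252 to 315), then in VEC-like cells at 198 CPM (176 to 223) and Lyve1-mid LEC-like cells at 183 CPM (155 to 213), whose intervals overlapped. They were lowest in sinus LEC-like cells at 38.3 CPM (25.0 to 56.1) and HEV-like cells at 29.6 CPM (23.9 to 36.3). In the Flcn iΔEC library the arterial cells again led at 191 CPM (175 to 208), above VEC-like cells at 99.0 CPM (88.4 to 111) and Lyve1-mid LEC-like cells at 92.2 CPM (83.4 to 102). Within LEC-like cells Tek was thus higher in the Lyve1-mid cluster than in the Lyve1-low one, by 183 against 61.0 CPM in the control and by 92.2 against 55.6 CPM in Flcn iΔEC.

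The Tek ratio was below 1 in each of the 7 types compared. It was 0.499 (0.424 to 0.588) in VEC-like and 0.572 (0.487 to 0.674) in LEC-like cells, which had 132 CPM (114 to 151) in the control and 75.5 CPM (69.5 to 81.8) in the Flcn iΔEC library. It was 0.408 (0.223 to 0.744) in sinus LEC-like, 0.676 (0.587 to 0.78) in Gja5-high AEC-like, 0.670 (0.513 to 0.867) in Cxcl12-high AEC-like and 0.685 (0.503 to 0.93) in HEV-like cells. In capillary-like cells, with 28 and 16 counts, the interval of 0.779 (0.393 to 1.49) included 1. Among the LEC-like clusters the Tek ratio was 0.505 (0.419 to 0.611) in Lyve1-mid cells. The intervals of 0.912 (0.605 to 1.42) in Lyve1-low and 0.6997 (0.376 to 1.34) in Lyve1-high cells included 1. Lyve1-low cells were 21 of the 78 control and 118 of the 295 Flcn iΔEC LEC-like cells. The part of this makeup in the LEC-like Tek ratio was not tested. The marker split turned the HEV-like ratio to 1.27 and moved the LEC-like one to 0.847. At 2000 UMIs per cell, a Tek UMI was found in 24.7% of the control endothelium and 15.9% of that of Flcn iΔEC, against 0.107% and 0.0131% of T-like cells, whereas without thinning the shares were 74.0% and 76.3%.

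Tie1 was close to level across most of the endothelium and, summed over all endothelial cells, between the libraries. It was at 246 CPM (237 to 256) in the control and 281 CPM (274 to 288) in Flcn iΔEC endothelial cells, from 2437 and 6152 counts. The ratio of 1.14 (1.09 to 1.2) turned to 0.942 when the 6 types with at least 20 cells in both libraries were weighted alike. These weights left out Lyve1-high LEC-like, sinus LEC-like, capillary-like and Prox1-positive VEC-like cells. The parts of the cell makeup and of the types left out in this turn were not tested. Control levels lay between 297 and 459 CPM in the 3 LEC-like clusters, VEC-like, capillary-like and both AEC-like clusters, with Lyve1-low LEC-like cells at 459 CPM (398 to 526). Sinus LEC-like cells at 132 CPM (107 to 163) and HEV-like cells at 99.3 CPM (88.6 to 111) stood below all of these. The same pair was lowest in the Flcn iΔEC library, with 137 CPM (119 to 158) and 138 CPM (127 to 150).

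Within types the Tie1 ratio was 1 (0.903 to 1.11) in VEC-like cells, which had 359 CPM in both libraries. LEC-like cells were at 372 CPM (343 to 404) and 321 CPM (309 to 334), a ratio of 0.862 (0.787 to 0.945). Among their clusters it was 0.669 (0.506 to 0.89) in Lyve1-high, 0.745 (0.641 to 0.871) in Lyve1-low and 0.956 (0.841 to 1.09) in Lyve1-mid cells. HEV-like cells had the opposite direction, with a ratio of 1.39 (1.21 to 1.6). The intervals of the other 4 types included 1. A Tie1 UMI was found in 44.5% and 45.2% of endothelial cells at 2000 UMIs per cell, and in 0.311% and 0.193% of T-like cells.

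Ptprb had more counts than any other member, and it was highest in Gja5-high AEC-like and VEC-like cells and low in LEC-like, sinus LEC-like and HEV-like cells. Over all endothelial cells it was at 732 CPM (716 to 749; 7250 counts) in the control and at 504 CPM (495 to 514; 11049 counts) in the Flcn iΔEC library, a ratio of 0.688 (0.668 to 0.709). In the control Gja5-high AEC-like cells at 1814 CPM (1736 to 1894) and VEC-like cells at 1739 CPM (1672 to 1809) did not differ beyond counting error. Cxcl12-high AEC-like cells followed at 1006 CPM (958 to 1056) and capillary-like cells at 642 CPM (553 to 741). LEC-like cells were at 188 CPM (167 to 210), sinus LEC-like cells at 159 CPM (130 to 192) and HEV-like cells at 143 CPM (130 to 157). The VEC-like level was 9.27 (8.21 to 10.5) times that of LEC-like cells in the control and 10.2 (9.47 to 10.9) times in the Flcn iΔEC library.

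The Ptprb ratio was 0.632 (0.553 to 0.723) in LEC-like cells, where the Flcn iΔEC level was 118 CPM (111 to 126), and 0.693 (0.659 to 0.729) in VEC-like cells, which had 1206 CPM (1168 to 1245). It was 0.562 (0.508 to 0.621) in Cxcl12-high AEC-like cells and 0.871 (0.826 to 0.918) in Gja5-high AEC-like cells, which kept 1579 CPM (1532 to 1627). Both lymphatic and venous cells thus had less Ptprb RNA per UMI in the Flcn iΔEC library, and the interval of the Gja5-high arterial cells lay nearer to 1 than theirs. HEV-like cells, at 162 CPM (150 to 175), and capillary-like cells, at 870 CPM (749 to 1005), had ratios above 1, which were 1.13 (1 to 1.28) and 1.36 (1.1 to 1.67). Without the cell richest in Ptprb in each library these ratios were 1.13 (0.995 to 1.28) and 1.2 (0.958 to 1.5), both with intervals that included 1. At 2000 UMIs per cell, 64.3% and 47.6% of endothelial cells held a Ptprb UMI. The ratio of Cdh5 was 0.805 (0.743 to 0.873) in LEC-like, 0.919 (0.861 to 0.981) in VEC-like and 1.35 (1.24 to 1.48) in Gja5-high AEC-like cells. Whether the Tek and Ptprb ratios share a source with those of Cdh5 was not tested.

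**Figure D2:**
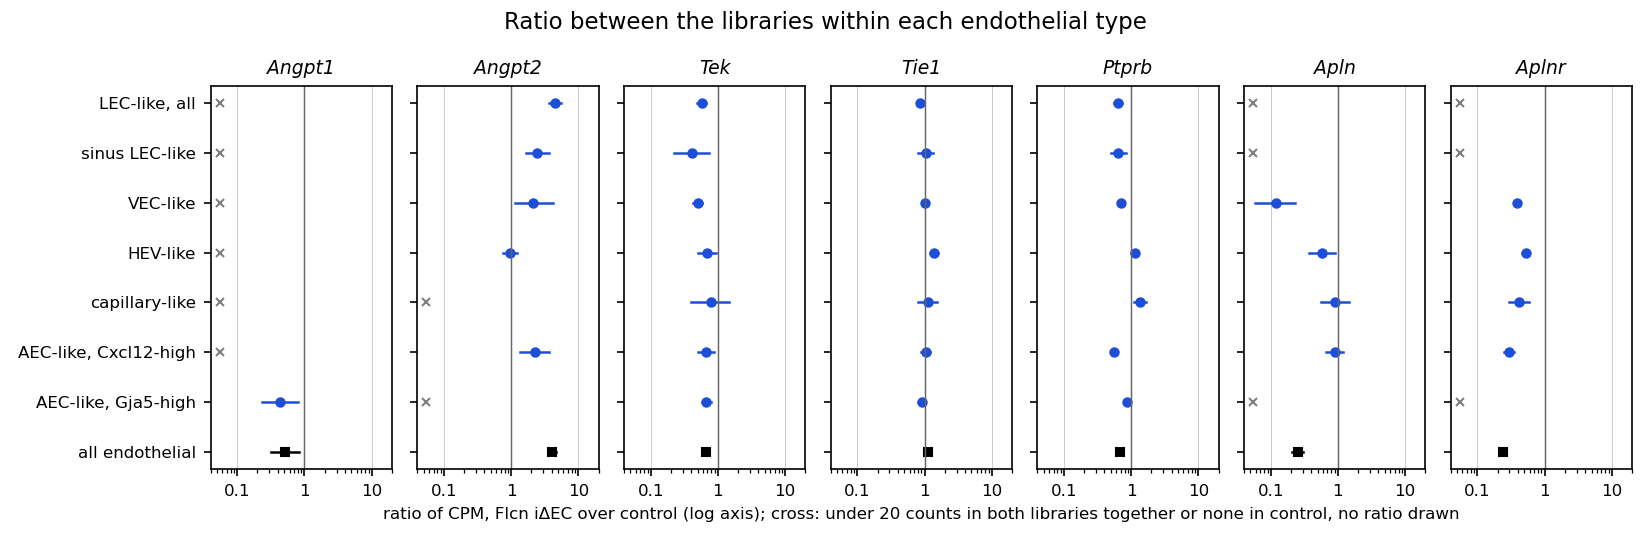
Ratio of CPM in the Flcn iΔEC over the control library (log axis) for each gene in 7 endothelial types (blue points) and over all endothelial cells (black squares), with lines for 95% counting intervals and grey crosses where no ratio is drawn. Angpt2 stands right of 1 in LEC-like, sinus LEC-like, VEC-like and Cxcl12-high AEC-like cells, Tek left of 1 in all 7 types, and Aplnr left of 1 in the 4 types with a ratio.

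The apelin ligand and its receptor were both found in blood endothelium, with next to no counts in LEC-like cells, and both were lower in the Flcn iΔEC library. Apln was at 30.2 CPM (26.9 to 33.8; 299 counts) in control and 7.58 CPM (6.47 to 8.82; 166 counts) in Flcn iΔEC endothelial cells, a ratio of 0.251 (0.206 to 0.304). The control order was capillary-like at 155 CPM (113 to 208), Cxcl12-high AEC-like at 95.6 CPM (81.2 to 112), VEC-like at 31.1 CPM (22.7 to 41.6) and HEV-like at 16.7 CPM (12.5 to 21.9). LEC-like, sinus LEC-like and Gja5-high AEC-like cells of the control had 0 Apln counts, which allows up to 1.94, 4.42 and 2.65 CPM. In the Flcn iΔEC library the order was capillary-like at 141 CPM (95.2 to 201), Cxcl12-high AEC-like at 85.9 CPM (67.9 to 107), HEV-like at 9.78 CPM (6.98 to 13.3) and VEC-like at 3.75 CPM (1.94 to 6.55). Venous and HEV-like cells thus changed places in the order.

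Within VEC-like cells the Apln ratio was farther from 1 than over the sum, and in the other types with a ratio it was nearer to 1. It was 0.121 (0.058 to 0.232) in VEC-like cells, from 45 and 12 counts, and 0.389 with the marker split. It was 0.585 (0.378 to 0.899) in HEV-like cells, and the intervals of 0.898 (0.676 to 1.19) in Cxcl12-high AEC-like and 0.908 (0.552 to 1.47) in capillary-like cells included 1. In the Cxcl12-high cells of the Flcn iΔEC library 47 of the 78 Apln counts lay in 1 cell, and without the richest cell of each library the ratio was 0.416 (0.272 to 0.618). With the 6 types weighted alike, which leave out capillary-like cells, the Apln ratio was 0.701, against 0.251 for the sum. It was 0.384 when the cell richest in Apln was also left out of each of these types in each library. The Cxcl12-high and capillary-like cells that carried most Apln were a smaller share of the Flcn iΔEC endothelium. At 2000 UMIs per cell, an Apln UMI was found in 6.54% (4.38 to 9.3%) of the control endothelium and in 1.24% (0.546 to 2.25%) of that of Flcn iΔEC, against 0.0195% and 0.0895% of T-like cells. Apln lies on the X chromosome, and the libraries differed in Xist, whose part in the Apln difference was not tested.

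Aplnr was at 247 CPM (237 to 257; 2444 counts) in control and 60.1 CPM (56.9 to 63.4; 1317 counts) in Flcn iΔEC endothelial cells, a ratio of 0.243 (0.227 to 0.26) or 0.373 with the 6 types weighted alike. In the control VEC-like cells at 578 CPM (540 to 619), Cxcl12-high AEC-like cells at 542 CPM (506 to 578) and capillary-like cells at 493 CPM (416 to 581) did not differ from their neighbours in the order beyond counting error. HEV-like cells were lower, at 179 CPM (165 to 195), and sinus LEC-like cells had 11 counts at 16.2 CPM, 9 of them in 1 cell. LEC-like cells had 0 counts in the control, which allows up to 1.94 CPM, and 1 count in the Flcn iΔEC library. Gja5-high AEC-like cells had 0 counts in both, so that Aplnr was not detected in arterial cells with high Gja5 or in control LEC-like cells at this depth.

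The Aplnr ratio was below 1 in each of the 4 types with at least 20 counts of the gene. VEC-like cells were at 229 CPM (212 to 246) in the Flcn iΔEC library, a ratio of 0.395 (0.357 to 0.437). Cxcl12-high AEC-like cells were at 162 CPM (137 to 190), a ratio of 0.299 (0.249 to 0.356), and HEV-like cells at 93.6 CPM (84.5 to 103), a ratio of 0.522 (0.457 to 0.595). Capillary-like cells were at 207 CPM (150 to 278), a ratio of 0.419 (0.292 to 0.591) that was 0.261 (0.159 to 0.411) without the richest cell of each library, since 21 of the 44 Flcn iΔEC counts lay in 1 cell. At 2000 UMIs per cell, an Aplnr UMI was found in 63.4% (50.5 to 74.1%) of VEC-like cells in the control and 34.5% (26.1 to 43.6%) after Flcn loss. Over all endothelial cells the shares were 30.3% and 9.25%, against 0.118% and 0.0700% of T-like cells.

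**Figure D3:**
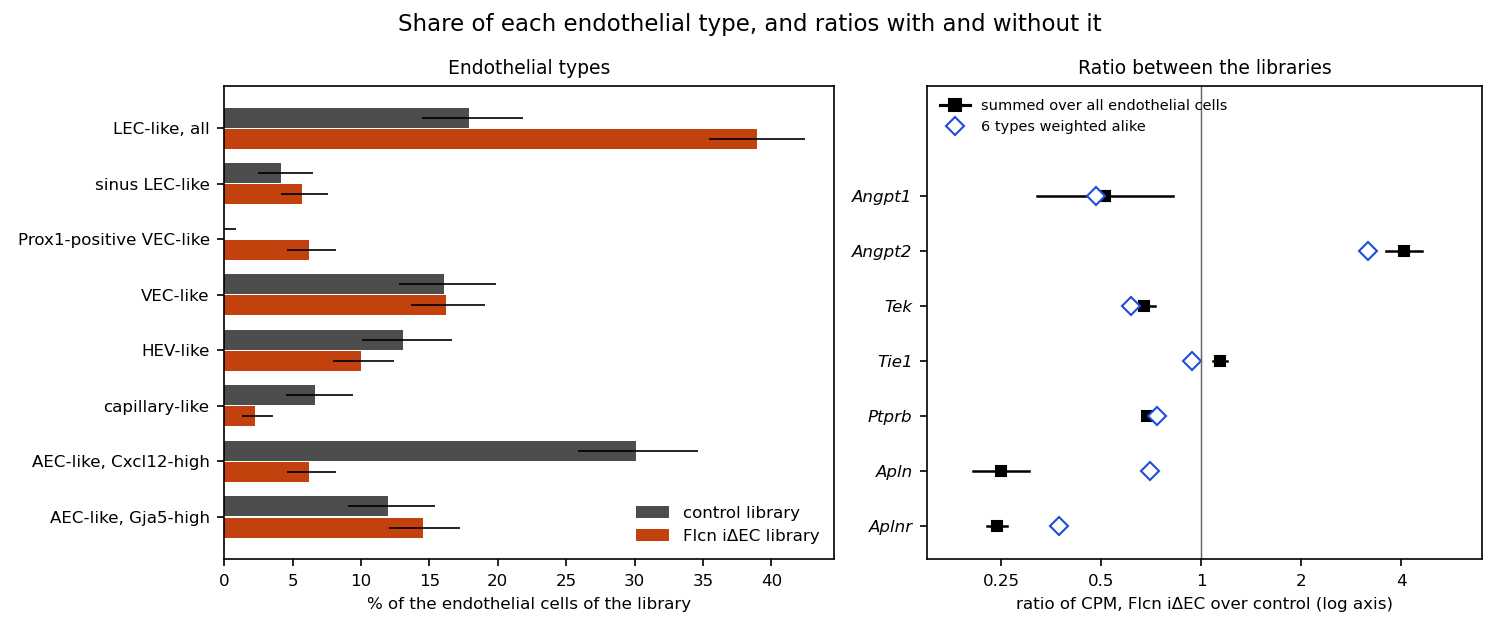
Left, share of each endothelial type among the endothelial cells of the control (grey) and Flcn iΔEC (orange) libraries, in percent with 95% intervals, and right, the ratio of CPM between the libraries (log axis) of each gene summed over all endothelial cells (black squares, with 95% counting intervals) and with 6 types weighted alike (open diamonds). For Apln the ratio is 0.251 by sum and 0.701 with equal weights, or 0.384 with equal weights and without the richest cells, and for Angpt2 it is 4.07 and 3.19.

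The Prox1-positive VEC-like cells of the Flcn iΔEC library lay between its VEC-like and LEC-like cells in Angpt2 and Ptprb, and held little apelin receptor RNA. The 7 genes had not been used to form this cluster, and its values are a description. Angpt2 was at 61.4 CPM (49.3 to 75.6; 89 counts), which was 3.22 (2.3 to 4.54) times the VEC-like level of 19 CPM and 0.231 (0.185 to 0.286) times the LEC-like level of 266 CPM. Ptprb was at 296 CPM (269 to 325), which was 0.245 (0.222 to 0.271) times the VEC-like and 2.50 (2.22 to 2.8) times the LEC-like level. Tek, at 85.5 CPM (71.1 to 102), had intervals that included 1 against both, with ratios of 0.864 (0.696 to 1.07) and 1.13 (0.926 to 1.38).

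Tie1 was at 401 CPM (369 to 435) in the Prox1-positive VEC-like cells, 1.12 (1.01 to 1.23) times the VEC-like and 1.25 (1.14 to 1.37) times the LEC-like level. Aplnr had 8 counts in 7 of the 47 cells, 5.52 CPM (2.38 to 10.9), which was 0.0241 (0.0104 to 0.0478) times the VEC-like level. Apln and Angpt1 had 0 counts, which allows up to 2.07 CPM of each. The order by Ptprb and Aplnr followed that of the venous marker Vwf, which was at 1483 CPM in VEC-like, 191 CPM in Prox1-positive and 5.48 CPM in LEC-like cells of this library. Cdh5, the gene of the gate, was at 866, 484 and 393 CPM in the same order. Hemoglobin genes made up 1.1% of UMIs in the Prox1-positive cells against 0.00593% in VEC-like cells, and the part of blood RNA or attached red cells in these levels was not tested.

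**Figure D4:**
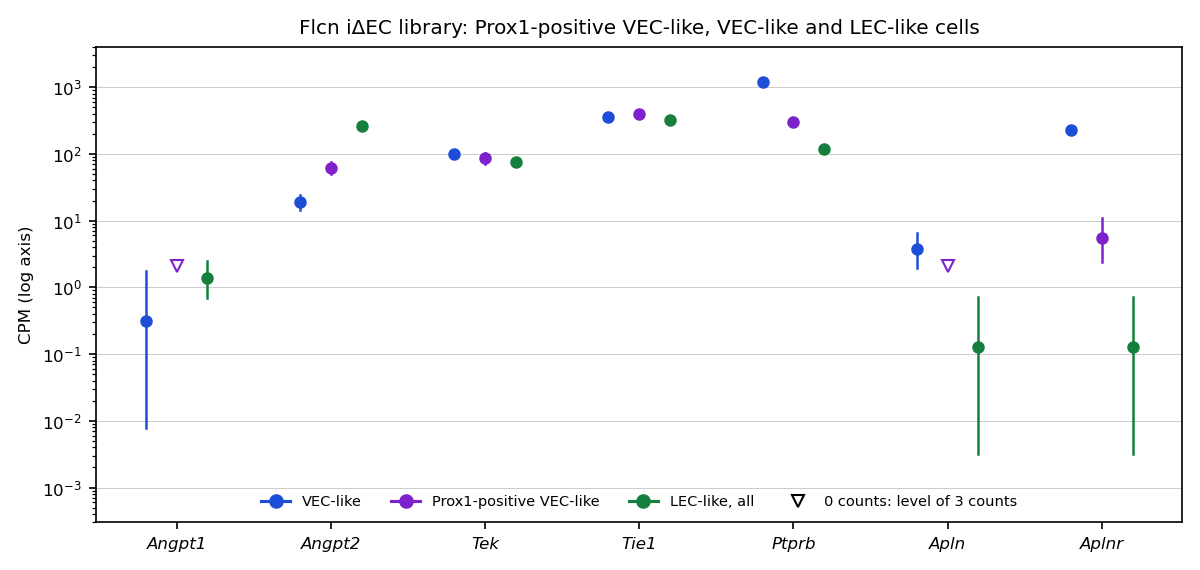
Level of each gene in CPM (log axis) in VEC-like (blue), Prox1-positive VEC-like (purple) and LEC-like (green) cells of the Flcn iΔEC library, with 95% counting intervals as lines and open triangles at the level of 3 counts where there were 0. Angpt2 goes up from 19 to 61.4 to 266 CPM over these cells and Ptprb goes down from 1206 to 296 to 118 CPM, while Tek and Tie1 stay within 75.5 to 99.0 and 321 to 401 CPM.

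The members were also read against all genes with at least 50 counts in both libraries together, of which some share passes a 2-fold ratio in either direction. Over all endothelial cells 3 of 7 members passed it, Angpt2 upward and Apln and Aplnr downward, where 9.68% of 12319 genes did. The members' median log2 ratio was -0.57, and that of all these genes was -0.13. In VEC-like cells 4 of the 6 members with enough counts passed, Angpt2 upward and Tek, Apln and Aplnr downward, where 7.93% of all genes did. In LEC-like cells Angpt2 was 1 of 4, where 10.5% of genes passed, and in sinus LEC-like cells it was 1 of 3, where 7.64% did.

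In the other blood endothelial types 0 to 2 members passed. For Cxcl12-high AEC-like cells 2 of 6 members passed, Angpt2 upward and Aplnr downward, where 5.93% of all genes did. For capillary-like cells 1 of 4 passed, Aplnr, where 7.21% did. In HEV-like cells 0 of 6 members passed, where 4.23% did, and in Gja5-high AEC-like cells 0 of 3, where 5.11% did. With so few members each count describes these libraries and sets the members apart from no other list.

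The other genes of the 2 pathways were read from lists. Of 18 further genes of angiopoietin and Tie signalling, 16 had at least 50 counts over all endothelial cells, with a median log2 ratio of -0.22. Of these 2 were past 2-fold, where 9.68% of all genes were. They were Grb7, a Tie2-binding adaptor, which was higher at 1.21 and 3.92 CPM from 12 and 86 counts, a ratio of 3.24 (1.76 to 6.51), and Dok2, another Tie2-binding adaptor, which was lower at 12.5 and 4.97 CPM, a ratio of 0.397 (0.304 to 0.518). Of the 86 Grb7 counts of Flcn iΔEC 67 lay in LEC-like cells, within which Grb7 was at 6.47 and 8.55 CPM, a ratio of 1.32 (0.676 to 2.88). Foxo1, a transcription factor held back by the kinase Akt, was at 126 and 106 CPM, a ratio of 0.840 (0.784 to 0.901). Nos3, the endothelial nitric oxide synthase, was at 107 and 72.8 CPM, a ratio of 0.678 (0.627 to 0.734). Svep1, which encodes a matrix ligand of Tie1, had 0 endothelial counts in both libraries.

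Of 13 further genes of apelin signalling, 10 were counted over all endothelial cells and 0 passed 2-fold, against the same 9.68% of all genes, with a median log2 ratio of -0.25. Apela, the gene of the other ligand of the apelin receptor, had 0 counts in both libraries. The members of the 2 lists with most UMIs were Gnai2, an inhibitory G protein subunit, at 1443 and 1181 CPM with a ratio of 0.819 (0.802 to 0.836), and Klf2, a flow-responsive transcription factor, at 1278 and 1105 CPM with a ratio of 0.865 (0.846 to 0.883). In LEC-like cells, where 10.5% of all genes were past 2-fold, 15 genes of the Tie list were counted and 1 was past it, Nos3, which was lower. In VEC-like cells, with 7.93% of all genes, it was 0 of 13. For the apelin list 2 of 10 were past it in LEC-like cells, the beta-arrestin genes Arrb1 and Arrb2, both lower, and 1 of 9 in VEC-like cells, Klf2, also lower.

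Outside the endothelium Angpt1 was found mainly in stromal-like cells, in epithelial-like cells led by Ins2 and in mast-like cells. The mast-like cluster also carried 6 of the 7 NK and innate lymphoid markers. The cells below the Cdh5 gate held 57.9% of the Angpt1 counts of the control and 47.4% of those of the Flcn iΔEC library. They include the shallow clusters with pan-endothelial markers. Stromal-like cells, 30 and 31 in number, had 9 counts in each library, at 20.6 CPM (9.4 to 39.0) and 18.7 CPM (8.57 to 35.6). The Ins2-led cells were at 60.9 CPM (42.6 to 84.2) from 44 cells in the control and at 41.9 CPM (16.8 to 86.3) from 5 cells in the Flcn iΔEC library. Mast-like cells were at 7.28 CPM (3.76 to 12.7) and 13.7 CPM (7.99 to 22.0), and T-like cells at 0.0987 and 0.109 CPM. NK and innate lymphoid-like cells had 7 counts at 2.81 CPM in the control and 2 counts at 1.03 CPM in Flcn iΔEC. Stromal-like, Ins2-led and mast-like cells thus stood above T-like cells in both libraries, whereas the other epithelial-like cluster had 0 Angpt1 counts in both, which allows up to 1.55 and 0.727 CPM.

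Angpt2 had counts in stromal-like cells too, 8 in the control at 18.3 CPM (7.89 to 36.0) and 36 in the Flcn iΔEC library at 75.0 CPM (52.5 to 104). When these cells were split by their markers, 11 control mural cells had 4 Angpt2 counts and 12 Flcn iΔEC mural cells had 25, at 23.9 CPM (6.51 to 61.1) and 137 CPM (88.7 to 202). The stromal-like ratio was 4.10 (1.87 to 10.2), and these cells had 0 and 1 counts of Tie1 in the control and Flcn iΔEC libraries. The direction of the Angpt2 difference was therefore the same in these few stromal cells as in LEC-like cells.

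Ptprb was the member with most counts in blood cells. T-like cells were at 35.2 CPM and 45.6 CPM, B-like cells at 39.8 and 42.7 CPM, and NK and innate lymphoid-like cells at 42.6 and 50.1 CPM. Similar low levels were found in unrelated cells. Erythroid-like cells were at 26.1 and 27.7 CPM, myeloid-like cells at 31.3 and 14.0 CPM and epithelial-like cells not led by Ins2 at 21.1 and 32.0 CPM. The source of this low Ptprb level was not tested. In T-like cells Ptprb was at 4.81% and 9.05% of its endothelial level, whereas Tie1 was at 0.561% and 0.426% of its own and Tek at 0.456% and 0.135%. There were 25.5 and 38.2 Ptprb counts per Tie1 count in T-like cells, against 2.97 and 1.80 in the endothelial cells of the same libraries. A Ptprb UMI was found in 6.98% and 8.96% of T-like cells at 2000 UMIs against 33.5% and 21.4% of LEC-like cells and 95.1% and 87.7% of VEC-like cells. Cells below the gate, which include the shallow clusters with pan-endothelial markers, held 15.7% of the Ptprb counts of the control and 9.26% of those of Flcn iΔEC. Of the Tek counts they held 3.93% and 1.45%.

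**Figure D5:**
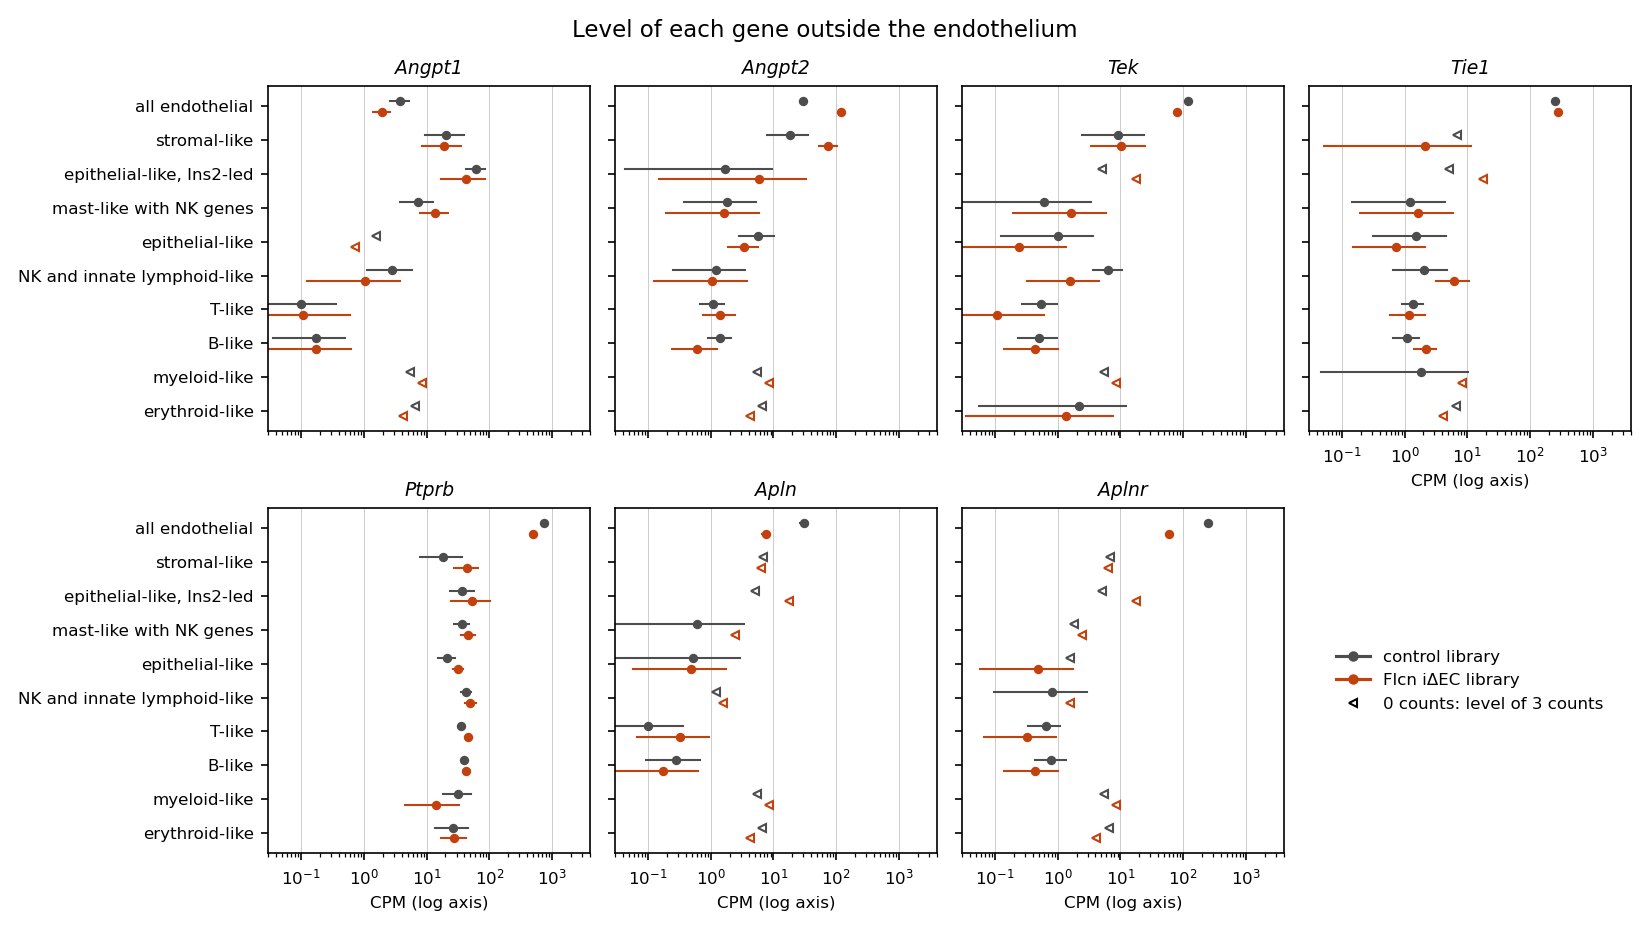
Level of each gene in CPM (log axis) in all endothelial cells and in 9 groups of other cells (rows) of the control (grey) and Flcn iΔEC (orange) libraries, with 95% counting intervals as lines and open triangles at the level of 3 counts where there were 0. Angpt1 is higher in stromal-like and Ins2-led epithelial-like cells than in all endothelial cells together, and Ptprb lies between 14.0 and 50.1 CPM in the blood cell groups. Gja5-high AEC-like cells are not drawn apart here, and their control level of Angpt1 was 19.5 CPM.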

How the data were processed

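CD31+ mesenteric cells of 1 control and 1 Flcn iΔEC library were profiled with the Chromium droplet system, which tags transcripts near their 3′ end. The authors aligned the reads with Cell Ranger 3.0, per the labels on the mouse build mm10, and deposited raw UMI counts per gene and cell without normalization; the annotation they used is not given in the sources used here. All deposited cells were kept. Of the 28692 genes, 28339 (98.8%) had their identifier in the annotation used for positions.

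Cells with at least 2 Cdh5 UMIs were clustered apart from the others with Seurat 5.3.0 in R 4.3.3, with counts scaled to 10000 per cell, anchor integration of both libraries, 30 dimensions and a resolution of 0.8. The 7 genes and the pathway lists were kept out of the variable features. A cluster was named from its markers when at least 3 of a list were at least 2-fold above the other cells, and these limits were chosen with the clusters in view. The 131 control and 134 Flcn iΔEC gated cells of clusters without a name were left out. Scrublet in scanpy 1.11.5 called 142 and 37 doublets, which were kept. The members and lists were chosen with earlier results of these data known. Named beside the members were list genes past 2-fold, Svep1, Apela, Foxo1, Nos3, the 2 list genes with most UMIs and, for each member, the 3 genes with the most similar levels.

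Levels are summed counts over summed UMIs computed with pandas 2.3.3, scipy 1.17.1 and numpy 2.4.6 under Python 3.11.15. They carry exact 95% Poisson intervals, with the level of 3 counts as the limit for a count of 0, ratios have conditional binomial intervals and shares Clopper-Pearson ones. Shares of cells with a UMI are expectations after thinning each cell to 2000 UMIs, with shallower cells left out. For log2 ratios over many genes 1 count was added. The depth was 64639756 and 60805779 UMIs. Scripts were tested on simulated data. Alternatives were a filter on cells, removal of doublets, other gates and resolutions, no integration, a split of single cells by markers, other totals, cell means, other thinning and another count minimum. Equal weights of types, all gated cells and omission of the richest cell, alone or with equal weights, were added after the data had been seen.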

Additional observations from a re-analysis of the deposited data

Results flagged for a closer look

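For Tie1 and Ptprb the ratio of Flcn iΔEC over control pointed in opposite directions in different endothelial types, with intervals for counting error that left out 1. With 1 library per genotype the difference between types was not tested.

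Tie1, the co-receptor of Tie2, had a ratio of 1.39 (1.21 to 1.6) in HEV-like cells and of 0.862 (0.787 to 0.945) in LEC-like cells. HEV-like cells also had the deepest profiles, with medians of 45537 and 41514 UMIs, and their Ptprc, the gene of the leukocyte antigen CD45, was at 163 CPM in the control and 91.6 CPM in the Flcn iΔEC library, and the part of either in the Tie1 ratio was not tested. In the same cells Lyve1 was at 9.14 and 48.9 CPM, Prox1 at 5.36 and 20.5 CPM and Glycam1, a ligand gene of high endothelial venules, at 10971 and 3860 CPM, in the control and in Flcn iΔEC, and their part was not tested either.

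Ptprb, the gene of VE-PTP, had ratios above 1 in HEV-like cells, 1.13 (1 to 1.28), and in capillary-like cells, 1.36 (1.1 to 1.67). Its ratios were below 1 in LEC-like cells at 0.632 (0.553 to 0.723), sinus LEC-like cells at 0.637 (0.494 to 0.824), VEC-like cells at 0.693 (0.659 to 0.729), Cxcl12-high AEC-like cells at 0.562 (0.508 to 0.621) and Gja5-high AEC-like cells at 0.871 (0.826 to 0.918). The capillary-like comparison rests on 29 control and 17 Flcn iΔEC cells. Without the richest cell of each library the intervals of both ratios above 1 included 1, with 1.13 (0.995 to 1.28) in HEV-like and 1.2 (0.958 to 1.5) in capillary-like cells.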

How the results depend on the processing

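No paired analysis was possible because each genotype had 1 library, and for the same reason no replicate could be left out. Of the recomputed values, 129 moved by no more than counting error, 66 moved by more, and 3 crossed 1 from a ratio whose interval left out 1. These 3 were the Tie1 ratio over all endothelial cells with types weighted alike (0.942, or 0.924 without the richest cells) and the Tek ratio in HEV-like cells with the marker split (1.27). Ratios whose interval included 1 were counted by the size of the move, also where they crossed 1. The Tie1 ratio in sinus LEC-like cells, for example, went from 1.04 to 0.625 with the marker split. The cause of the changes below was not tested, apart from those made by fewer UMIs per cell. Depth limits Angpt1 everywhere, Apln in VEC-like cells and all 7 genes in capillary-like cells.

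Over all endothelial cells, cell means gave ratios of 4.76 for Angpt2, 0.596 for Tek, 1.05 for Tie1, 0.618 for Ptprb, 0.156 for Apln and 0.206 for Aplnr. Equal weights of types gave 3.19 for Angpt2, 0.617 for Tek, 0.738 for Ptprb, 0.701 for Apln and 0.373 for Aplnr, and without the richest cell of each type and library 0.609 for Tek, 0.739 for Ptprb, 0.384 for Apln and 0.371 for Aplnr. Ptprb was at 0.714 over all gated cells, and Apln at 0.206 with a gate of at least 1 Cdh5 UMI and at 0.192 without the richest cells. Omission of the richest cells also gave 0.416 for Apln in Cxcl12-high AEC-like cells and 0.261 for Aplnr in capillary-like cells.

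Within types the marker split gave, in LEC-like cells, 0.847 for Tek, 0.982 for Tie1 and 0.776 for Ptprb. In sinus LEC-like cells it gave 1.6 for Angpt2, 0.625 for Tie1 and 0.492 for Ptprb, and in VEC-like cells 8.17 for Angpt2, 0.623 for Tek, 0.747 for Ptprb and 0.389 for Apln. In HEV-like cells it gave 1.70 for Ptprb and 0.454 for Aplnr, and in AEC-like and capillary-like cells together 3.5 for Angpt2, 0.670 for Tek, 1.09 for Tie1, 0.722 for Ptprb and 0.381 for Aplnr. Without integration Angpt2 was at 3.87 in sinus LEC-like cells and Aplnr at 0.111 in AEC-like and capillary-like cells. The VEC-like cluster then held 1 control and 130 Flcn iΔEC cells, so no venous ratio could be given. At a resolution of 1.6 the VEC-like ratios were 0.786 for Ptprb and 0.462 for Aplnr.

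Shares of endothelial cells with a UMI followed the thinning. In the control and Flcn iΔEC libraries they were, without thinning, 5.98% and 4.49% for Angpt1, 23.4% and 52.5% for Angpt2, 74.0% and 76.3% for Tek, 93.3% and 97.9% for Tie1, 96.3% and 95.4% for Ptprb, 17.0% and 6.99% for Apln, and 49.7% and 25.2% for Aplnr. At 1000 UMIs they were 2.46% and 10.4% for Angpt2, 13.7% and 8.47% for Tek, 25.8% and 26.6% for Tie1, 48.7% and 33.8% for Ptprb, and 21.0% and 5.58% for Aplnr, and 4.09% for Apln in the control. The share of all genes past 2-fold was 12.0% with a count minimum of 20 and 9.63% with the other total, against 9.68%.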

Other observations

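The gated cells without a cell type name, which carried genes of cycling epithelial, NK, B or T cells beside Cdh5, held the same 7 genes. Aplnr was lower in the Flcn iΔEC library in each of the 4 clusters, with ratios of 0.275 (0.239 to 0.315) in the cycling cluster with epithelial genes, 0.453 (0.388 to 0.528) with NK genes, 0.275 (0.174 to 0.422) with B cell genes and 0.142 (0.0626 to 0.286) with T cell genes. Angpt2 was higher in 3 of them, from 19 to 110 CPM in the cycling cluster, from 4.07 to 22.8 CPM with NK genes and from 4.84 to 130 CPM with B cell genes, where the control had 2 counts. In the cluster with T cell genes Angpt2 had 1 and 0 counts. The lymphatic genes Lyve1 and Prox1 and the venous gene Vwf differed in the same 3 clusters. In the cycling cluster Lyve1 went from 118 to 246 CPM, Prox1 from 84.6 to 344 CPM and Vwf from 1197 to 382 CPM. With B cell genes they went from 21.8 to 272, from 67.7 to 204 and from 515 to 255 CPM, and with NK genes from 4.07 to 19.1, from 24.4 to 24.9 and from 1576 to 977 CPM. Their part in the Angpt2 and Aplnr values was not tested.

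Over the 16 combinations of endothelial type and library with at least 20 cells, Apln and Aplnr had the most similar levels among the 7 genes, with a Pearson r of 0.893 on log2(CPM + 1). Tek correlated with Ptprb at 0.752 and with Tie1 at 0.702, and Angpt2 correlated with Ptprb at -0.803. The combinations share their library, its depth and its genotype, so these values describe the levels and were not tested.

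Among 9776 other genes, the 3 most like Angpt1 were Sod3 (0.866), Sfrp2 (0.847) and Wwp1 (0.835), and those most like Angpt2 were Hoga1 (0.913), Med9 (0.908) and Amdhd2 (0.9). Tek was most like Ecm2 (0.932), Mall (0.907) and Ptrf (0.907), Tie1 most like Rab12 (0.947), Egfl7 (0.934) and Chmp2b (0.929), and Ptprb most like Heg1 (0.962), Wwc2 (0.946) and Pcnx (0.944). Apln was most like Ccdc85a (0.95), 1810011O10Rik (0.942) and Exoc5 (0.941), and Aplnr most like Cysltr1 (0.933), Fam167b (0.925) and Scarb1 (0.916).

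Few cells held much of the apelin RNA. Of the 204 Apln counts in the whole Flcn iΔEC library 9 cells held at least 50%, and of the 483 in the control 22 cells did. For Aplnr these were 49 and 73 cells, and for Angpt2 84 and 34 cells, in the Flcn iΔEC and control libraries.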
